A study of Mus musculus with 16 samples.

Results

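In the neonatal fat of mice, adipocyte precursor cells (APCs) and mesothelial-like cells (MLCs) shared a set of 335 genes that set them apart from fibro-inflammatory progenitors (FIPs) and smooth muscle cells (SMCs). The set holds 160 genes that were higher in APCs and MLCs, called the shared-high genes here, and 175 that were lower, the shared-low genes. Of the shared-high genes, 76 belong to 5 lists of cell cycle genes (DNA replication, nucleotide supply, mitosis, DNA repair by recombination, and the E2F and G1 cyclin axis), and none of the shared-low genes do. Among the shared-low genes were Pi16, Tek, Wnt5a, Wnt10b, Tgfb2 and Pcolce2. A gene entered the set when each of its 8 values in APCs and MLCs lay above, or each lay below, each of its 8 values in FIPs and SMCs, on the scale of log2(normalized count + 1). The nearest population means of both sides also had to lie at least 1.5-fold apart. The whole table has 27179 rows. Because these values chose the genes, the difference between the pair of APCs and MLCs and the pair of FIPs and SMCs is given below as a description. Counts of limma calls for that difference are printed for all genes and for gene lists as background, and are no test of the set. Results on the genes of the set are tested only within the pairs, APCs against MLCs and FIPs against SMCs, where the rule fixes no direction.

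The 16 libraries are total RNA of Pdgfrb+ cells that flow cytometry had divided into these 4 populations, 4 libraries each. The cells came from the epididymal fat pad of 7-day-old C57BL/6 mice (postnatal day 7). All groups share strain, age, depot and the Pdgfrb sort, and no transgene, drug or other treatment is given in the labels. Whether the 4 libraries of a population came from separate mice, and how many mice were pooled, is not given in the sources used here, so the spread behind the p-values may be technical. Library depth was 9.20 to 27.5 M reads, with 23.0 to 25.4 M in FIPs, 20.8 to 24.8 M in MLCs, 11.2 to 27.5 M in APCs and 9.20 to 19.6 M in SMCs. The shallowest were APCs replicate 4 and SMCs replicate 3. By their sums, marker lists followed the labels for APCs, FIPs and MLCs. The means of single markers did too, except for Dpp4 and Ebf2. Dpp4, an interstitial progenitor marker, had means of 8805 in MLCs and 2053 in FIPs. Ebf2, an adipocyte precursor marker, had 5112 in FIPs and 3651 in APCs. The summed normalized counts of 13 mesothelial markers were 146730 to 151320 in MLCs, 11492 to 17654 in SMCs and at most 5194 in APCs and FIPs. The part of MLCs among the sorted SMCs in these values and in the set was not tested. The sums of 8 adipocyte precursor markers were 56130 to 84841 in APCs and at most 43777 elsewhere. Without Lpl they were 12495 to 14406 in APCs and at most 7688.5 elsewhere. The sums of 9 interstitial progenitor markers were 73748 to 82837 in FIPs and at most 25768 elsewhere. For SMCs the separation was small, since 10 smooth muscle markers summed to 14476 to 19422 there against 10367 to 13510 in APCs and 11798 to 12437 in MLCs. Without Smtn the sums were 10156 to 15359 in SMCs and overlapped the 6506 to 10667 in APCs, with 6218 to 6733 in MLCs. Smtn and Myh11 had their highest means in MLCs and Mylk in APCs, while the other markers of the list were highest in SMCs. Pdgfrb itself, the receptor used for the sort, had a mean of 457 ± 28 in MLCs, far below 4717 ± 166 in APCs, 2862 ± 198 in FIPs and 3787 ± 411 in SMCs.

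A dividing cell copies its DNA in S phase and separates the copies in mitosis, and the genes for each step are transcribed in waves. Genes for replication and nucleotide synthesis are switched on by E2F transcription factors when Rb family proteins release them, and genes for mitosis rise later, under B-Myb and FoxM1 with the MuvB complex, which binds the CHR element (TTTGAA), often next to CCAAT boxes bound by NF-Y. In fat tissue, division of progenitors before birth and in the first weeks of life supplies the cells that later become adipocytes. In libraries of sorted cells a higher level of these transcripts cannot be told apart between more dividing cells and more RNA per dividing cell.

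Promoters of 6 shared-high genes show the motifs of these 2 waves. The stretches are the 150 bases before a RefSeq transcript start on the gene's own strand (GRCm38.p6), with matches on either strand in capitals, searched for the CCAAT box, for the CHR element TTTGAA and for the E2F strings TTTCCCGC or TTTGGCGC. The first 4 genes were chosen because they carry both the CCAAT box and the CHR element, and the last 2, replication genes, because they carry an E2F motif.
Cdk1, chr10:69352913-69353062, minus strand: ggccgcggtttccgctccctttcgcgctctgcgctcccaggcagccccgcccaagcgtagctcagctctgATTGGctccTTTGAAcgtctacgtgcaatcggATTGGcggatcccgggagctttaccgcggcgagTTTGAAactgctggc
Top2a, chr11:99024190-99024339, minus strand: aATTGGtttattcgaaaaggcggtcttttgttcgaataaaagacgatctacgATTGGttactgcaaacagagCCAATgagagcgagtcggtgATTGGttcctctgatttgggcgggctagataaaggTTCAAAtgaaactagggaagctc
Ube2c, chr2:164769779-164769928, plus strand: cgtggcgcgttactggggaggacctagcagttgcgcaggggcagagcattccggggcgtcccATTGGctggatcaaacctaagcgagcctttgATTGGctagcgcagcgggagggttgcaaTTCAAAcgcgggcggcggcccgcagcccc
Asf1b, chr8:83955544-83955693, plus strand: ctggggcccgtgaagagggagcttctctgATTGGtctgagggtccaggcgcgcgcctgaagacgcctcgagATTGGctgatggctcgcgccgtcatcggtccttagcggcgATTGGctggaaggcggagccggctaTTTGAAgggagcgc
Cdc6, chr11:98908001-98908150, plus strand: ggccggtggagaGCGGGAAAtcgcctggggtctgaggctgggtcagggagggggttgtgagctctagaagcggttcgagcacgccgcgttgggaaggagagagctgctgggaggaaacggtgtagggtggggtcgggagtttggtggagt
Mcm5, chr8:75109359-75109508, plus strand: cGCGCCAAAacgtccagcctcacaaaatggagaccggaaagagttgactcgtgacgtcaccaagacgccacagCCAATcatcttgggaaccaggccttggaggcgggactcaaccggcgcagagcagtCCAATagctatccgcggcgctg
Cdk1 encodes the kinase that drives entry into mitosis (chromosome 10, 69335146 to 69352912), Top2a the topoisomerase that untangles sister DNA (chromosome 11, 98992947 to 99024199), Ube2c a ubiquitin-conjugating enzyme of the anaphase-promoting complex (chromosome 2, 164769929 to 164772902), and Asf1b a histone chaperone of replication (chromosome 8, 83955694 to 83970195). Cdc6 (chromosome 11, 98907709 to 98923942) loads, and Mcm5 (chromosome 8, 75109468 to 75128439) is a subunit of, the replicative helicase. The Cdc6 stretch lies inside the span of its gene, so it precedes a transcript start within the gene. The Mcm5 and Top2a stretches overlap the spans of their genes in part.

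Over whole promoter windows, 250 bases before to 50 after the start, TTTGAA or its complement stood in 57.9% of the 38 windows of shared-high mitosis genes. The share was 69.0% of 58 windows of mitosis list genes outside the set, 10.6% of 104 windows of shared-high genes outside the cell cycle lists, 11.4% of 193 windows of shared-low genes, 11.9% of 14578 windows of all genes tested and 17.9% of all 32851 windows in the RefSeq table. The CCAAT box and the CHR element occurred together in 47.4% of the shared-high mitosis windows against 4.68% for all genes tested. An E2F motif, TTTCCCGC or TTTGGCGC, stood in 28.6% of the 14 windows of shared-high replication genes, in 27.0% of 37 windows of the other replication list genes and in 2.75% for all genes tested. By these shares the shared-high cell cycle genes lay nearer to the rest of their lists than to all genes tested. Of the set, 132 shared-high and 128 shared-low genes had a window in the table, a gene can have several windows that overlap, and a match is a string of letters, not a measured binding site. The E box CACGTG and the TATA box string TATAAA were also searched, and stood in 6.98% and 7.56% of shared-high windows against 9.58% and 7.40% for all genes tested.

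**Figure D1:**
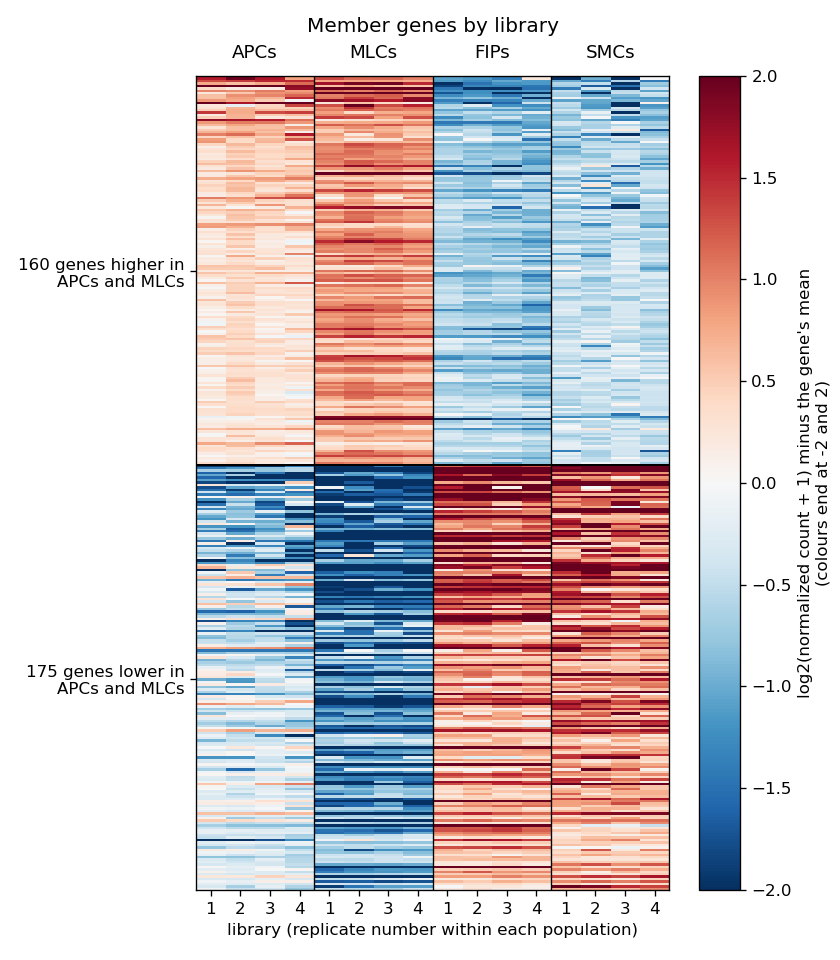
Heat map of the 335 genes (rows, ordered within each block by the gap between the nearest population means) in the 16 libraries (columns). Colour is log2(normalized count + 1) minus the gene's mean, so red is above and blue below it. In the upper block of 160 genes MLCs are mostly redder than APCs, and in the lower block of 175 genes MLCs are mostly bluer than APCs.

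The cell cycle made up the largest named group. Mitosis genes led it, with 45 of the 103 tested in the set, where 1.06% of all genes tested were shared-high and 1.12% shared-low, followed by DNA replication with 13 of 54, nucleotide supply with 8 of 30, recombination repair with 6 of 37 and the E2F and G1 cyclin axis with 4 of 30. In limma on all 15024 genes tested, 13.1% were called higher and 13.1% lower in the mean of APCs and MLCs than in the mean of FIPs and SMCs (adjusted p under 0.05 and at least 1.5-fold). Of the 254 tested genes of the 5 cell cycle lists, 185 were called higher and 3 lower, and 76 of the 185 are genes of the set, which the rule chose on the same contrast and libraries. Of all calls 50% were higher, and with libraries scaled to equal totals 64.6% were, a scaling that moved the median of all genes by 0.18 on the log2 scale. The cell cycle count was then 208. Quantile normalization left it at 179. These lists were drawn up with earlier results of the same data known.

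Cdk1 stood at 714, 895, 804 and 1039 in APCs, 1102, 1214, 1216 and 1108 in MLCs, 434, 358, 371 and 378 in FIPs and 431, 477, 485 and 495 in SMCs. APC libraries spread more than those of the other populations but all stayed well above FIPs and SMCs. Top2a had 3634, 4672, 3737 and 3393 in APCs, 6962, 7171, 7264 and 6643 in MLCs, 1936, 1717, 1739 and 1536 in FIPs and 2583, 2236, 2575 and 2049.7 in SMCs. The lowest of the APC libraries lay above the highest of the SMC libraries, and MLCs stood clearly highest. By library, Ccnb1 was at 364, 464, 379 and 367 in APCs, 670.2, 616, 686 and 625 in MLCs, 211, 176, 191 and 161 in FIPs and 263, 175, 243 and 267 in SMCs. Ccnb1 encodes cyclin B1, the partner of Cdk1 at entry into mitosis, and followed the same order of populations. The population means of Ube2c ran from 799.7 ± 46.9 in MLCs and 396 ± 36.8 in APCs to 239 ± 46.5 in SMCs and 200.2 ± 30.7 in FIPs. Aurkb, the kinase of the chromosomal passenger complex, had means of 702 ± 51.7, 499 ± 62.6, 302 ± 26.8 and 216 ± 32 in the same order.

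Among mitosis genes the largest gaps between the nearest population means belonged to Esco2, which joins sister chromatids, at 2.27-fold, Pbk, a mitotic kinase, at 2.18-fold, Cenpm at 2.16-fold and Cenpw at 2.14-fold. Cenpm and Cenpw are proteins of the inner kinetochore. Normalized counts for Esco2 were 253, 358, 314 and 334 in APCs, 429, 461, 445 and 416 in MLCs, 151, 129, 117 and 111 in FIPs and 116, 159, 156 and 123 in SMCs. All MLC libraries lay above all APC libraries for this gene, while FIPs and SMCs overlapped. Pbk and Cenpm showed still less difference between APCs and MLCs, with log2 differences of -0.16 and -0.14 that did not pass the test. Shcbp1, a protein of the midzone of dividing cells, was called higher in MLCs than in APCs (log2 difference -0.65, SE 0.16, adjusted p 0.00137), a call that was lost without APCs replicate 1 (-0.56) and after quantile normalization (-0.53).

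DNA replication contributed origin licensing and firing factors, helicase subunits and chromatin assembly factors: Cdc6, Mcm5, Mcm7, Mcm10, Cdc45, Gins1, Dbf4, Ticrr, Rfc4, Asf1b, Chaf1b, Uhrf1 and Hells. Mcm5 stood at 996, 1294, 1012 and 968 in APCs, 1521, 2002, 1662 and 1612 in MLCs, 552, 581, 610.1 and 449.8 in FIPs and 601, 664, 551 and 574 in SMCs. FIP and SMC libraries overlapped, and MLCs stood above APCs (log2 difference -0.67, SE 0.11, adjusted p 1.62e-05). Asf1b had 243, 320.2, 275 and 271 in APCs, 387, 539.5, 405 and 424 in MLCs, 137, 113, 127 and 97.9 in FIPs and 122, 88.6, 154 and 94 in SMCs. Its gap of 2.34-fold was the widest in the replication list, followed by Uhrf1, which recruits the maintenance DNA methyltransferase, at 2.05-fold, Mcm10 at 2.05-fold and Cdc6 at 2.004-fold. Chaf1b, a subunit of the CAF-1 histone chaperone, differed most between the 2 high populations, with 664 ± 69.5 in MLCs and 239 ± 34.4 in APCs (log2 difference -1.48, SE 0.14, adjusted p 1.27e-08).

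Nucleotide supply showed the salvage and synthesis enzymes of deoxynucleotides (among them Rrm2, Tk1, Tyms and Dut) next to the serine and one-carbon enzymes Psat1, Phgdh and Shmt1. By library, Rrm2 was at 688, 807, 691 and 659 in APCs, 1066, 1283, 1155 and 1114 in MLCs, 286, 258, 243 and 237 in FIPs and 299, 361, 376 and 319 in SMCs. Rrm2 is the S phase subunit of ribonucleotide reductase. Normalized counts for Psat1 were 1662, 1987, 1873 and 1817 in APCs, 2411, 2732, 2540.2 and 2394 in MLCs, 571, 570.4, 547 and 516 in FIPs and 911, 744, 813 and 697 in SMCs. Psat1 and Phgdh catalyse consecutive steps of serine synthesis, and serine feeds the one-carbon units used for thymidylate and purines. Phgdh stood at 859, 838, 871 and 819.6 in APCs, 1424, 1639.7, 1508 and 1494 in MLCs, 313, 328, 346 and 251 in FIPs and 551, 477, 448 and 552 in SMCs. Phgdh was called higher in MLCs than in APCs (log2 difference -0.84, SE 0.09, adjusted p 8.89e-08) and higher in SMCs than in FIPs (log2 difference -0.71, SE 0.09, adjusted p 1.6e-06). For Shmt1 the difference between APCs and MLCs did not pass the test, with APCs at 176 ± 18.7 and MLCs at 163 ± 16.9, with FIPs at 57.3 ± 8.24 and SMCs at 79.4 ± 1.34.

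Of the repair genes, Ung, which removes uracil from DNA, Exo1, a 5′ exonuclease, Rad51ap1, a protein of recombination repair, and Blm, a helicase, had gaps of 1.83-, 1.61-, 1.54- and 1.54-fold. The set held 4 genes of the E2F axis. E2f2 is an activating E2F, E2f8 an atypical repressor, Ccne2 the cyclin of S phase entry and Rbl1 encodes p107, an Rb relative. E2f8 had 228, 267, 248 and 246 in APCs, 571, 714, 667 and 557 in MLCs, 98.9, 110.02, 112 and 90.7 in FIPs and 154, 193, 128 and 150.2 in SMCs. E2f8 was called higher in MLCs than in APCs (log2 difference -1.33, SE 0.12, adjusted p 7.16e-09), as was E2f2 (log2 difference -1.26, SE 0.15, adjusted p 3.09e-07). Rbl1 was called too (log2 difference -0.72, SE 0.08, adjusted p 1.63e-07), and Ccne2 was not (log2 difference -0.13, SE 0.17, adjusted p 0.51). The list of cell cycle brakes and p53 targets gave 2 shared-high genes of 35 tested, Sesn2 at a gap of 1.52-fold and Cdkn2c, an inhibitor of Cdk4 and Cdk6, at 1.51-fold. Of the interferon list 15 of 36 genes tested were called higher in the mean of APCs and MLCs, of the replication-dependent histones 4 of 11 and of the ribosome biogenesis list 1 of 40, and no gene of these lists met the rule of the set. Between APCs and MLCs, 23 of the 36 interferon genes were called higher in MLCs and 1 higher in APCs.

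**Figure D2:**
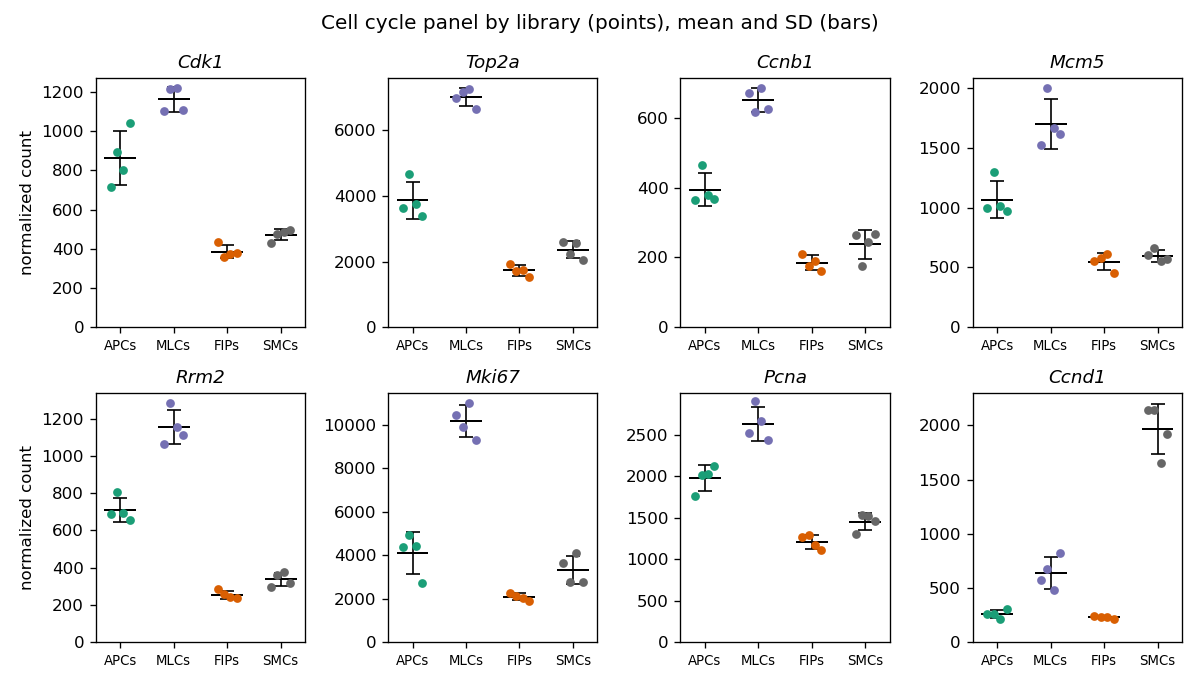
Normalized counts of 8 cell cycle genes in each library (points), with the mean (line) and SD (bars) of 4 libraries per population, each panel with its own axis from 0. Cdk1, Top2a, Ccnb1, Mcm5 and Rrm2 belong to the set, and the APC values of Mki67 overlap those of SMCs while Ccnd1 is highest in SMCs.

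APCs and MLCs were not alike within this group. For 66 of the 76 shared-high cell cycle genes the population means ran from MLCs through APCs and SMCs to FIPs. The rule itself puts APCs and MLCs above FIPs and SMCs, so only the order within each pair was free. Of the 84 shared-high genes outside the lists, 40 (47.6%) had this order. The same order held for 159 (62.6%) of all 254 tested genes of the 5 lists. Of the 76, 48 were called higher in MLCs than in APCs by limma and 0 higher in APCs, while over all genes tested 23.9% were called higher in MLCs and 17.6% higher in APCs. At an unadjusted p under 0.05 the count higher in APCs was 0 and edgeR gave 0. In the 5 lists as a whole 141 of 254 were called higher in MLCs and 4 higher in APCs. Quantile normalization took the 141 to 113, and the fit without the 2 shallowest libraries took it to 130. Between FIPs and SMCs fewer were called: 6 of the 76 were called higher in SMCs, against 18.5% of all genes tested, and 0 higher in FIPs, against 9.11%. The rule takes the gap between the nearest means and so disfavours genes with a wide difference between FIPs and SMCs. A low count among the 76 is therefore partly built in. In the 5 lists as a whole 29 of 254 were called higher in SMCs and 6 higher in FIPs. At an unadjusted p under 0.05, 1 was higher in FIPs, and edgeR called 0.

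Several of the best known proliferation genes missed the set. By library, Mki67 was at 4382, 4922, 4420.1 and 2718 in APCs, 10479, 9887, 11000.00 and 9323 in MLCs, 2292, 2115, 2056 and 1902 in FIPs and 3650.4, 2792, 4095 and 2755 in SMCs. Mki67, which encodes the Ki-67 antigen, was called higher in MLCs than in APCs (log2 difference -1.34, SE 0.15, adjusted p 1.31e-07) and higher in SMCs than in FIPs (log2 difference -0.65, SE 0.15, adjusted p 0.00104), but APCs replicate 4 lay below all 4 SMC libraries and the nearest means were only 1.23-fold apart. Pcna, the sliding clamp of replication, did not overlap between the sides but had a gap of only 1.36-fold, with means of 2627 ± 208 in MLCs, 1979 ± 156 in APCs, 1453 ± 104 in SMCs and 1209 ± 84.1 in FIPs. Of the 185 cell cycle list genes called higher, 109 stayed outside the set. In 55 of them libraries overlapped and the gap was too small, in 48 only the gap was too small and in 6 libraries only overlapped. In 70 of the 109 the lowest library of APCs and MLCs was APCs replicate 4, and in 44 the highest library of FIPs and SMCs was SMCs replicate 3, the 2 shallowest libraries. APCs replicate 4 also stood apart in contractile genes, with Acta2 at 2388 against 156 to 221 in the other 3 APC libraries, Tagln at 1463 against 194 to 318 and Cnn1 at 116 against 6.04 to 9.297, and the part of these in the overlaps was not tested. Without APCs replicate 4 alone the rule gave 96 cell cycle list genes. Without these 2 libraries the rule gave 103 cell cycle list genes instead of 76, and 236 shared-high and 206 shared-low genes in all. The 10 genes most like Mki67 over the 16 libraries, by Pearson's r on the log2 scale, were Aspm (0.997), Kif4, Nsd2, Msh6, Foxred2, Cenpe, Ccdc85c, Cenpf, Fam83d and Kif20b (0.982), and none of them belongs to the set. Because Mki67 itself misses the rule, genes this like it over the same libraries are likely to miss it too.

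Genes that hold division back or start it did not follow one pattern. Ccnd1, which encodes cyclin D1, the cyclin that answers growth factors in G1, was highest in SMCs at 1964 ± 231, against 638 ± 148 in MLCs, 259 ± 35.4 in APCs and 234 ± 11.7 in FIPs. Cdkn1a, the p21 inhibitor, was highest in MLCs at 2038 ± 239. Cdkn1c encodes p57, an imprinted inhibitor of cyclin-dependent kinases. Normalized counts for Cdkn1c were 3906, 4529.5, 3710.2 and 3801 in APCs, 1254, 1517, 1275 and 1210.4 in MLCs, 11721, 11560.00, 11635 and 10800.00 in FIPs and 5081, 5828, 4720.5 and 5892 in SMCs. All FIP and SMC libraries lay above all APC and MLC libraries, with a gap of 1.35-fold that kept Cdkn1c outside the set.

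Outside the cell cycle lists stood 84 shared-high genes, among them those with the widest gaps of all. The lists do not hold every gene of division, so they give no full count of cell cycle genes in the set. Some of the 84, such as Cenpp, Cenpq and Pclaf, also serve replication or mitosis. Cenpp, Cenpq and Pclaf were picked after their values were seen. Gpat3 makes the first step of triglyceride synthesis from glycerol phosphate (chromosome 5, 100845665 to 100899102). Gpat3 stood at 120.02, 99.7, 111 and 104 in APCs, 192, 175, 199.9 and 195 in MLCs, 9.89, 17.6, 7.64 and 11.8 in FIPs and 44.2, 12.8, 14.9 and 18.4 in SMCs. The nearest means were 5.21-fold apart. MLCs exceeded APCs (log2 difference -0.81, SE 0.29, adjusted p 0.0201; -0.57 and not called after quantile normalization), and the higher value of SMCs over FIPs rested on SMCs replicate 1 (log2 difference -0.78, SE 0.29, adjusted p 0.0311), since the other 3 SMC libraries lay between 12.8 and 18.4. Without that library the difference was -0.41 and was not called, and quantile normalization turned it to 0.019. Gpam, another enzyme of the same step, was called in neither pair, with APCs and MLCs at 1606 ± 99.1 and 1611 ± 103, and FIPs and SMCs at 1005 ± 65 and 912 ± 119. Other genes of lipid metabolism in the set were Cyp51 and Acat2 of sterol synthesis, with gaps of 1.604- and 1.57-fold, out of 25 sterol list genes tested. Ldhb, a lactate dehydrogenase subunit, had a gap of 2.01-fold.

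Trf encodes transferrin, the iron carrier of serum (chromosome 9, 103208876 to 103230286). Trf had 9557, 10238, 11169 and 10913 in APCs, 6785, 6791, 6735 and 6516 in MLCs, 1795, 1648, 1910.4 and 1762 in FIPs and 1939.5, 1507, 2596 and 1474 in SMCs. It was the shared-high gene with the third widest gap (3.67-fold) and, unlike the cell cycle genes, was called higher in APCs than in MLCs (log2 difference 0.64, SE 0.12, adjusted p 0.000116). With libraries scaled to equal totals the difference was 0.55 and under the 1.5-fold limit. Tfrc, the transferrin receptor, was in the set as well. By library, Tfrc was at 664, 657, 664 and 718 in APCs, 806, 796, 683 and 649.7 in MLCs, 345, 336, 331 and 313 in FIPs and 440.1, 458, 468 and 339 in SMCs. The difference between APCs and MLCs did not pass the test for Tfrc (log2 difference -0.11, SE 0.094, adjusted p 0.299). Hcar1, a lactate receptor of fat cells, and Retn, the adipocyte hormone resistin, were also higher in APCs than in MLCs (log2 difference 1.36, SE 0.21, adjusted p 9.02e-06 for Hcar1 and log2 difference 1.77, SE 0.54, adjusted p 0.0069 for Retn). Normalized counts for Retn were 35.5, 26.2, 39.3 and 48.4 in APCs, 9.22, 11.8, 10.3 and 8.803 in MLCs, 2.97, 0.924, 1.91 and 5.44 in FIPs and 5.26, 3.202, 0 and 8.17 in SMCs. Retn was low everywhere, and markers of mature adipocytes summed to 2026 to 2571 in APCs against 215 to 245 in MLCs, 137 to 175 in FIPs and 284 to 598 in SMCs, whose part in Retn and Hcar1 was not tested. Tfrc, Hcar1 and Retn were picked after their values were seen.

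Other shared-high genes came from matrix, adhesion and signalling. Adamts17 stood at 3387, 3272, 3509 and 3054 in APCs, 3684, 3462, 3784 and 3375 in MLCs, 740.01, 736, 732 and 777 in FIPs and 1221, 783, 1191 and 817 in SMCs. Adamts17 is a secreted metalloprotease, and its values in APCs and MLCs overlapped. Cadm1 had 414, 522, 543 and 623 in APCs, 549.6, 599, 640.2 and 533 in MLCs, 117, 124, 102 and 141 in FIPs and 171, 136, 147 and 195 in SMCs. Cadm1, an immunoglobulin-type adhesion molecule, likewise showed overlapping APC and MLC libraries (log2 difference -0.16, SE 0.13, adjusted p 0.311). Fbln2, fibulin-2 of elastic fibres and basement membranes, was among the most abundant, at 34477 ± 1179.7 in APCs, 40877 ± 558 in MLCs, 22845 ± 2472 in FIPs and 20314 ± 3267 in SMCs, although 17 of the 26 elastic fibre genes tested were called lower in the mean of APCs and MLCs and 1 higher. Between APCs and MLCs, 15 of the 26 were called higher in APCs and 4 higher in MLCs. Chst15, a chondroitin sulphate sulphotransferase, was called higher in SMCs than in FIPs (log2 difference -0.94, SE 0.12, adjusted p 3.3e-06). Chd7, a chromatin remodeller, and Mmd were called higher in APCs than in MLCs (log2 difference 1.18, SE 0.16, adjusted p 1.66e-06 for Chd7 and log2 difference 0.72, SE 0.11, adjusted p 7.6e-06 for Mmd).

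Among shared-high genes with means of at least 100 in both APCs and MLCs, the 5 largest called differences between these populations were higher in MLCs, those of Bcar3, Cavin2, Chaf1b, Arc and E2f8. Bcar3, an adaptor of integrin and growth factor signalling, reached 865 ± 70.9 in MLCs against 199 ± 32.5 in APCs (log2 difference -2.12, SE 0.21, adjusted p 2.84e-08), with 133 ± 42.5 in SMCs and 36 ± 11.2 in FIPs. Cavin2, a coat protein of caveolae, reached 13087 ± 268 against 3716 ± 397 (log2 difference -1.82, SE 0.083, adjusted p 1.73e-13). Arc, an immediate early gene first studied in neurons, reached 1782 ± 224 against 693 ± 49.8 (log2 difference -1.36, SE 0.13, adjusted p 1.71e-08), and Doc2b, a calcium sensor of vesicle release, 380.1 ± 29.4 against 169.9 ± 42.4 (log2 difference -1.19, SE 0.16, adjusted p 1.82e-06). Sorl1, a sorting receptor, was called at a smaller size (log2 difference -0.62, SE 0.12, adjusted p 0.000131), and not without APCs replicate 4 (-0.48), without MLCs replicate 3 (-0.57) or after quantile normalization (-0.57). Dnph1, a nucleotide hydrolase, and Larp1b were called in both pairs, higher in MLCs and in SMCs, whereas Arxes1 was called only between SMCs and FIPs (log2 difference -1.07, SE 0.17, adjusted p 3.35e-05) and not between APCs and MLCs (log2 difference 0.21, SE 0.17, adjusted p 0.294).

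**Figure D3:**
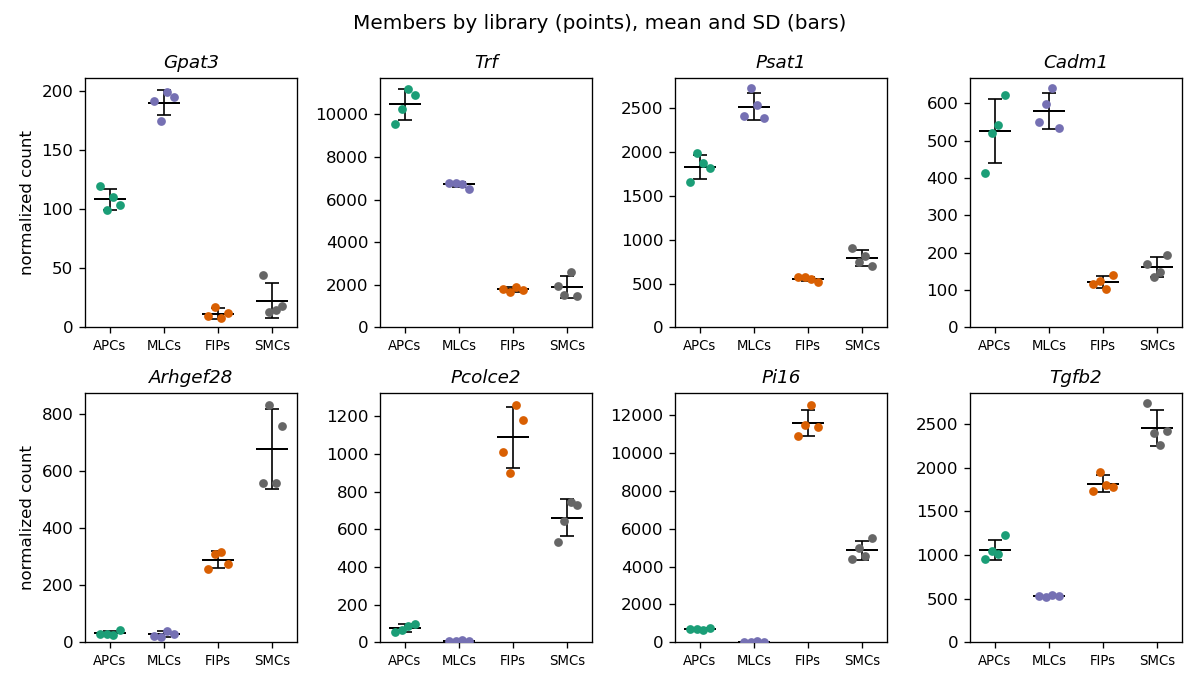
Normalized counts of 4 shared-high genes (top row) and 4 shared-low genes (bottom row) in each library (points), with the mean (line) and SD (bars) of 4 libraries per population, each panel with its own axis from 0. Trf is higher in APCs than in MLCs, Gpat3 and Psat1 the reverse, and Pi16 and Pcolce2 are lower in MLCs than in APCs.

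The 175 shared-low genes had wider gaps, with a median of 1.96-fold against 1.68-fold for the shared-high genes, and 13 of at least 4-fold against 1. Of them 168 passed the filter on low values, as did all 160 shared-high genes, and 6 had a mean under 10 in every population. Arhgef28, a guanine nucleotide exchange factor for RhoA, led them (chromosome 13, 97898594 to 98206675). By library, Arhgef28 was at 29.6, 30.2, 25.7 and 41.5 in APCs, 20.9, 19.4, 41.3 and 29.9 in MLCs, 256, 309.7, 317 and 275 in FIPs and 556, 830.4, 557 and 756 in SMCs. Its nearest means were 8.97-fold apart, APCs and MLCs overlapped, and SMCs were called higher than FIPs (log2 difference -1.20, SE 0.21, adjusted p 7.5e-05).

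Some of the shared-low genes encode secreted matrix proteins and their processing enzymes. Normalized counts for Pcolce2 were 54.9, 66.5, 84.4 and 98.6 in APCs, 6.702, 7.61, 14 and 6.16 in MLCs, 1012, 901, 1259 and 1182 in FIPs and 532, 645, 747 and 728 in SMCs. Pcolce2 enhances the trimming of procollagens. It was called higher in APCs than in MLCs (log2 difference 3.03, SE 0.21, adjusted p 1.49e-10) and in FIPs than in SMCs (log2 difference 0.72, SE 0.21, adjusted p 0.00808), the latter not with libraries scaled to equal totals (0.49). Of 37 collagen and collagen maturation genes tested, Pcolce2 alone was in the set, although 23 were called lower in the mean of APCs and MLCs and 1 higher. Between APCs and MLCs, 21 of the 37 were called higher in APCs and 4 higher in MLCs. Adamts16, a metalloprotease, had means of 7379.9 ± 432 in FIPs, 2100.5 ± 604 in SMCs, 379 ± 32.2 in APCs and 114 ± 15.7 in MLCs. Thbs3, a thrombospondin, was high throughout, from 16368 ± 586 in FIPs and 14837 ± 1361 in SMCs to 8207 ± 479 in APCs and 6296 ± 173 in MLCs. Thbs3 and Omd were the 2 shared-low genes of 31 matricellular genes tested, and Adamtsl5 was the 1 of 26 elastic fibre genes. Omd, or osteomodulin, and Adamtsl5, a microfibril binding protein, had gaps of 1.96- and 1.502-fold and were not called between APCs and MLCs. Cilp stood at 1201, 917, 1426 and 1691 in APCs, 6.702, 26.2, 19.9 and 12.3 in MLCs, 2046, 1794, 2342 and 2511 in FIPs and 10168, 11645, 9829.6 and 12968 in SMCs. Cilp, a matrix protein of cartilage and heart, was highest in SMCs and nearly absent from MLCs, with the largest difference between APCs and MLCs of the genes named here (log2 difference 6.36, SE 0.27, adjusted p 5.05e-14).

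Pi16 is a defining marker of the interstitial progenitors of fat and other tissues (chromosome 17, 29318796 to 29328903). Pi16 had 718, 716, 665 and 761 in APCs, 40.2, 36.4, 44.3 and 38.7 in MLCs, 10929, 11465, 12530.00 and 11368 in FIPs and 4412, 4991, 4546 and 5536 in SMCs. FIPs stood highest, and SMCs, the nearest population, lay 6.78-fold above APCs. Of the 9 interstitial progenitor markers, Pi16 and Wnt2 were in the set, and the summed level of the list was 73748 to 82837 in FIPs, 23609 to 25768 in SMCs, 21755 to 23116 in MLCs and 13651 to 17046 in APCs. The part of interstitial progenitors among the sorted SMCs in these values was not tested.

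Other shared-low genes encode signalling ligands and their antagonists. Wnt10b is an inhibitor of fat cell formation. By library, Wnt10b was at 15.2, 9.06, 7.15 and 3.46 in APCs, 8.38, 11, 15.5 and 20.2 in MLCs, 551, 662, 617 and 553 in FIPs and 73.7, 88.6, 55.5 and 88.9 in SMCs. FIPs exceeded SMCs (log2 difference 2.96, SE 0.31, adjusted p 1.65e-07). Normalized counts for Wnt5a were 2579, 2682, 2951 and 2751 in APCs, 1016, 968, 879.9 and 1005 in MLCs, 4442, 4243, 4834 and 4602 in FIPs and 8088, 10110.00, 7112 and 9979.9 in SMCs. Wnt5a, a ligand of the planar polarity branch, was highest in SMCs. Sfrp4, a secreted Wnt antagonist, ran from 967 ± 157 in FIPs and 258 ± 79.7 in SMCs to 79.2 ± 21.6 in APCs and 7.77 ± 2.37 in MLCs. With Wnt2, they made 4 of 40 Wnt list genes tested, and 10 of the 40 were called lower and 7 higher in the mean of APCs and MLCs. Tgfb2 stood at 955, 1043, 1015 and 1226 in APCs, 528, 521, 537 and 529 in MLCs, 1732, 1956, 1799 and 1774 in FIPs and 2741, 2395, 2259 and 2426 in SMCs. For Tgfb2, a TGF-beta ligand, MLC libraries lay within a range of 521 to 537. Chrdl1, a secreted BMP antagonist, was higher in SMCs than in FIPs (log2 difference -1.38, SE 0.13, adjusted p 2.41e-08), and Bmp3, a ligand that opposes other BMPs, was higher in FIPs (log2 difference 1.54, SE 0.31, adjusted p 0.000311). Those 3 were the BMP and TGF-beta genes in the set, of 49 tested, and 18 of the 49 were called lower and 6 higher in the mean of APCs and MLCs. Zfp423, a transcription factor of adipocyte commitment, was lower in APCs at 364 ± 44.4 than in FIPs at 614 ± 23.7 or SMCs at 1249 ± 163, and lowest in MLCs at 194 ± 16.7. Of 30 adipocyte differentiation genes tested, Zfp423 was the 1 shared-low gene and Gpam the 1 shared-high gene. In that list 11 were called higher and 7 lower in the mean of APCs and MLCs. Lif, a cytokine of the interleukin-6 family, and Aldh1a3, which makes retinoic acid, had gaps of 2.04- and 2.29-fold.

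Several shared-low genes are best known from neurons, for which no list was drawn up. In the list of semaphorins, ephrins and axon guidance 2 of 52 genes tested were shared-low, and 16 were called higher and 17 lower in the mean of APCs and MLCs. Gap43, a growth cone protein, had means of 1165 ± 48.3 in FIPs, 228 ± 20.46 in SMCs, 69.7 ± 24.4 in APCs and 46.1 ± 9.77 in MLCs. Islr2 had a similar profile, with 1194 ± 129.9, 256 ± 27.6, 83.5 ± 8.45 and 56.3 ± 15.2 in the same order. The neurotrophin receptor gene Ntrk3 was in the set. Ntrk3 had 714, 585, 663 and 612 in APCs, 24.3, 38.1, 19.2 and 19.4 in MLCs, 1562, 1637, 1552 and 1751 in FIPs and 4671, 4664, 3734 and 4850.5 in SMCs. SMCs stood highest and MLCs far below the other populations. Ntf3, the ligand of Ntrk3, went the other way and was a shared-high gene. By library, Ntf3 was at 14.4, 18.1, 23.6 and 24.2 in APCs, 67, 65.1, 52.4 and 85.4 in MLCs, 2.97, 4.62, 0.955 and 1.81 in FIPs and 7.37, 1.07, 8.54 and 9.196 in SMCs. The transmitter receptor genes Gabrb2, Glrb and Htr2a were shared-low too, with gaps of 1.76-, 2.52- and 2.59-fold. Ntn1, which encodes netrin-1, had 2213 ± 217 in APCs and 2414 ± 209 in MLCs against 5205 ± 339.8 in FIPs and 6838 ± 541 in SMCs. Ntrk3, Ntf3 and the 3 transmitter receptor genes were picked after their values were seen. The 8 Schwann cell markers summed to 3526 to 3727 in MLCs, 580 to 813 in SMCs, 196 to 227 in FIPs and 175 to 237 in APCs. Without Mbp the sums were 284 to 350 in MLCs, 292 to 373 in SMCs, 175 to 202 in FIPs and 167 to 219.6 in APCs, and the part of Schwann cells in these values was not tested.

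Adhesion genes in the set were Itga2 and Itga9, integrin subunits for collagen and for tenascin and other ligands, and the cadherins Cdh6 and Cdh10, 4 of 49 tested in a list of which 16 were called higher and 18 lower in the mean of APCs and MLCs. Normalized counts for Itga2 were 24.5, 18.1, 27.9 and 81.3 in APCs, 11.7, 33, 24.3 and 7.92 in MLCs, 316, 298, 345 and 332 in FIPs and 177, 95, 254 and 106 in SMCs. APCs replicate 4 stood above the other 3 APC libraries for Itga2 but below all FIP and SMC libraries. Among the other shared-low genes with wide gaps were Rgs6, a regulator of G protein signalling, at 5.64-fold, Insrr, a receptor related to the insulin receptor, at 4.75-fold, Pamr1 at 4.16-fold, Ppfia2 at 3.95-fold and St6gal1, a sialyltransferase, at 3.93-fold. Insrr was at 3.49 ± 2.31 in MLCs and 96.4 ± 18 in APCs, and Ppfia2 was at 0 in 2 MLC libraries. Tek, an angiopoietin receptor and an endothelial marker, was in the set (742, 703, 666 and 766 in APCs, 33.5, 29.6, 35.4 and 48.4 in MLCs, 7579, 7412, 8276 and 8042 in FIPs and 1362, 1099, 1322 and 1221 in SMCs), whereas the endothelial marker Egfl7 was shared-high. The 12 endothelial markers, Tek included, summed to 7939 to 8856 in FIPs, 4867 to 5902 in MLCs, 3758 to 4549 in SMCs and 1181 to 1793 in APCs. Most of the sum in FIPs was Tek itself, and without Tek the sums were 4837 to 5868 in MLCs, 2436 to 3449.5 in SMCs, 478 to 1051 in APCs and 353 to 609 in FIPs. The part of endothelial cells in these values was not tested.

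**Figure D4:**
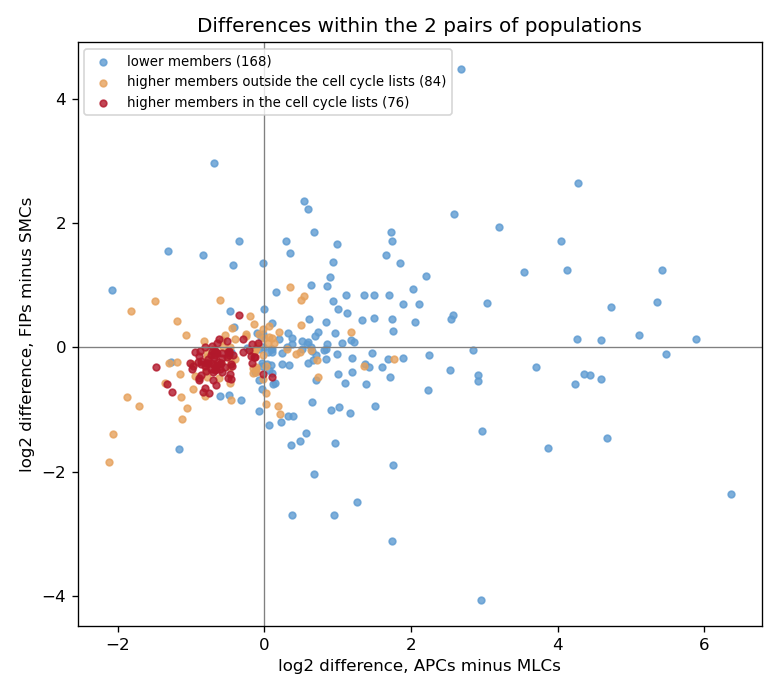
Each point is 1 of the 328 genes of the set that were tested, placed by its limma log2 difference between APCs and MLCs (horizontal, positive where APCs are higher) and between FIPs and SMCs (vertical, positive where FIPs are higher). Most shared-high cell cycle genes (red) lie left of 0, where MLCs are higher, and shared-low genes (blue) reach far to the right, where APCs are higher.

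Between APCs and MLCs the 2 directions of the set were ordered in opposite ways. Of the 160 shared-high genes, 77 (48.1%) were called higher in MLCs and 6 (3.75%) higher in APCs, beside the 23.9% and 17.6% of all genes tested. Of the 168 shared-low genes tested, 99 (58.9%) were called higher in APCs and 4 (2.38%) higher in MLCs. By log2 means MLCs were the more extreme population in 135 of 160 shared-high and 142 of 175 shared-low genes. Among shared-low genes APCs exceeded MLCs at least 4-fold in 38 and at least 16-fold in 17, while the only shared-high genes with a 4-fold excess of MLCs over APCs numbered 2. The share of all calls between these populations that were higher in APCs was 42.5%, and 53.1% after quantile normalization, under which the 77 became 57 and the 99 became 113. Large differences besides that of Cilp were those of Pi15 (59.1-fold), Efcc1 (42.9-fold) and Galnt17 (40.8-fold), on the log2(value + 1) scale. The exceptions, shared-low genes called higher in MLCs than in APCs, included Wnt2 (log2 difference -2.08, SE 0.29, adjusted p 3.05e-06) and Bmp3 (log2 difference -1.32, SE 0.31, adjusted p 0.000858).

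Between FIPs and SMCs few shared-high genes were called. The rule disfavours a wide difference within a pair, because the gap is taken between the nearest means. Among shared-high genes 17 (10.6%) were called higher in SMCs and 1 (0.625%) higher in FIPs, beside 18.5% and 9.11% of all genes tested. Among shared-low genes 42 (25%) were called higher in FIPs and 27 (16.1%) higher in SMCs, the latter near the 18.5% of all genes tested. Among shared-low genes with means of at least 100 in both FIPs and SMCs, Tek, Gap43, Islr2, Sfrp4 and Adamts16 led the first of these, at 6.27-, 5.11-, 4.66-, 3.84- and 3.61-fold. Cilp, Lmntd1, Shisa9, Gpr155 and Zfp469 led the second, at 5.14-, 4.098-, 3.74-, 2.99- and 2.84-fold. Larger differences occurred where one of the means was lower, such as 22.4-fold for Ackr2, a decoy receptor for chemokines, with 708 ± 99.8 in FIPs and 31.3 ± 8.99 in SMCs, and 16.7-fold for Dner, with 419.8 ± 64.3 in SMCs and 24.1 ± 2.49 in FIPs, both picked after their values were seen. The share of all calls between FIPs and SMCs that were higher in FIPs was 33.0%, and was 19.3% with libraries scaled to equal totals and 51.8% after quantile normalization. Under these 2 scalings the 17 shared-high genes called higher in SMCs became 39 and 7, and the 27 shared-low genes became 44 and 33. In neither pair were 73 of the shared-high and 44 of the shared-low genes called.

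With both directions together, the same rule gave more genes for each of the other ways to pair the populations. It gave 308 genes higher and 1099 lower in APCs and FIPs than in MLCs and SMCs. In FIPs and MLCs it gave 235 lower and 124 higher than in APCs and SMCs, the latter fewer than the 160 shared-high genes. Without the limit on the gap, 511 genes lay higher and 434 lower in APCs and MLCs. Just inside the limit were Neil3 (1.501-fold), Tacc3 and Cdkn2c among shared-high genes and Adamtsl5 (1.502-fold), Osbpl5 and C1qtnf2 among shared-low genes. Just outside were Prim1 (1.499-fold), Mms22l and Nup210, and Vsig10 (1.499-fold), Cep295nl and Tmem38a. All 160 shared-high genes are annotated as protein coding, as are 91.3% of the 173 shared-low genes with a place in RefSeq and 94.5% of all genes tested. The median RefSeq gene span was 43.9 kb in the shared-low genes, 21.9 kb in the shared-high genes and 22.9 kb in all genes tested.

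Macrophage and myeloid markers (13 genes) summed to 2593 to 3170 in MLCs, 939 to 1184 in SMCs, 633 to 1348 in APCs and 568 to 895 in FIPs. Csf1r held most of the sum in MLCs, and without it the sums were 578 to 755 in MLCs, 759 to 876 in SMCs, 591 to 1321 in APCs and 539 to 867 in FIPs. The part of these cells in the set was not tested. Lymphocyte markers summed to at most 107 in any library, and erythroid markers to at most 332.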

How the data were processed

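The deposited table gives 1 normalized signal per gene and library, which the authors made from read counts with 1 scaling factor for each library. Per the submitters' processing notes the tools were DESeq2 1.6.3, featureCounts 1.4.6, HISAT2 2.0.1 and Trim Galore 0.4.1, and the builds GRCm38 and mm10, without roles. The strand setting is not given in the sources used here, so overlapping, antisense and near-identical genes may share reads. Undoing the scaling gave whole reads, within 0.01, for 100% of values above 0. Columns headed SMLCs were taken as SMCs.

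Genes reaching 10 in at least 4 libraries, 15024 in all, were tested with limma 3.58.1 in R 4.3.3 (lmFit, contrasts, eBayes with a mean-variance trend) on log2(value + 1), in 1 model of the 4 populations. A call needs a Benjamini-Hochberg adjusted p under 0.05 and at least 1.5-fold, two-sided. Log2 differences are APCs minus MLCs or FIPs minus SMCs, and the added 1 understates those of low genes. Values after ± are SDs over 4 libraries. The test was run on simulated data for APCs against MLCs, and its outcome is not given here. The simulation changed APCs only and gave all genes the same dispersion, so it does not cover the spread between the real libraries. As an alternative, edgeR 4.0.16 (quasi-likelihood) was run on recovered reads of 14 libraries, leaving out FIPs replicate 1 and APCs replicate 2, whose values nearly equal their reads. It called 3702 genes for the mean of APCs and MLCs against the mean of FIPs and SMCs, where limma called 3946.

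The genes of the set and the lists were chosen with earlier results of these data known. Named genes are, in each direction, the 15 with the widest gap whose means reach 100 in both populations of the higher side, up to 4 per list, the 5 with the largest called difference each way within each pair, the 3 on each side of the gap limit, and a panel of 11 genes, with exceptions stated, and some of them are left out of the text. Results for a few genes are not reported here. Promoters and gene spans are RefSeq's, 1-based.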

Additional observations from a re-analysis of the deposited data

Results flagged for a closer look

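For 89 named genes of the set that were tested, 1 of the 4 libraries of a population stood apart from the other 3 by Dixon's criterion in 21 of 356 combinations of gene and population. Chance alone flags about 1 in 20 such groups. Each value is a normalized count, given with the range of the other 3 libraries. In APCs replicate 2 these were Ccnb1 at 464 against 364 to 379 and Mcm5 at 1294 against 968 to 1012. In APCs replicate 4 these were Itga2 at 81.3 against 18.1 to 27.9 and Zfp469 at 394 against 596 to 628. In FIPs replicate 2 these were Chd7 at 59.2 against 50.5 to 51.7, Gpam at 908 against 1030.00 to 1042, Cavin2 at 2085 against 2506 to 2571 and Adamtsl5 at 2023 against 1816 to 1838. In FIPs replicate 4 these were Doc2b at 57.1 against 43.5 to 45.8, Chst15 at 117 against 88 to 88.8, Exo1 at 52.6 against 78.2 to 82.1 and Necab3 at 101 against 109 to 109. In MLCs replicate 1 this was Lmntd1 at 36.9 against 22 to 23.6. In MLCs replicate 2 this was Sfrp4 at 4.23 against 8.803 to 9.22. In MLCs replicate 3 this was Efcc1 at 11.1 against 3.35 to 4.23. In SMCs replicate 1 these were Rad51ap1 at 140.00 against 95 to 102, Ldhb at 306 against 425 to 448 and Cdh6 at 103 against 49 to 55.5. In SMCs replicate 4 these were Cenpm at 63.4 against 85.3 to 88.6, Acat2 at 223 against 188 to 192 and Pamr1 at 1619 against 1405 to 1441. No library held more than 4 of the 21. Because the rule requires all libraries of one side to lie beyond all of the other, each of these values stayed on its side.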

How the results depend on the processing

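The counts of the set depend most on the scaling and the gap. With libraries scaled to equal totals the rule gave 245 shared-high genes, of which 159 were among the 160, and 113 shared-low genes. Quantile normalization kept 129 of the 160 shared-high genes and 124 of the 175 shared-low genes. With a 2-fold gap it gave 45 and 85, and 17 cell cycle list genes. Leaving out each library in turn gave 150 to 203 shared-high genes, 174 to 201 shared-low genes and 64 to 96 shared-high cell cycle list genes. Among calls within the pairs, 39 shared-high genes were called higher in SMCs than in FIPs with equal totals and 7 after quantile normalization, and 44 shared-low genes with equal totals. Of all genes tested, 1369 were called higher in FIPs than in SMCs, 888 with equal totals and 2165 after quantile normalization. The cause was not tested. The other counts that were recomputed (calls of the set within each pair and by direction, of the cell cycle lists, and of all genes for the pair of populations) stayed within 1.5 times their value under every alternative run (pseudocounts of 0.1 and 8, both scalings, no filter on low values, edgeR, each library left out, and the 2 shallowest libraries left out, an alternative chosen after seeing the data). Of the single differences that were called among named genes, 63 values over all alternatives lost the call and 1 turned, Gpat3 between FIPs and SMCs after quantile normalization (0.019). Of named genes not called, 7 of 38 between APCs and MLCs and 27 of 51 between FIPs and SMCs changed sign under some alternative, and no direction is given for them. Whether equal replicate numbers mark libraries from the same sort or mice is not given. Deviations of same-numbered libraries correlated at a median of 0.059, over 0.1 in 6 of 24 pairs. In the 72 pairs with different numbers the median was -0.019 and the highest 0.22. Of 16 libraries, 8 correlated best with their own number. The main model took no account of replicate numbers. With the replicate number as a block, 187 genes of the set were called between APCs and MLCs (186 without), 88 between FIPs and SMCs (87 without) and 3972 of all genes for the pair of populations (3946 without). Depth, 21.6 M reads at the median, limits the precision of the shared-low genes that are near 0 in MLCs.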
